A study of Mus musculus with 20 samples.

Results

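The 10 immediate early genes Egr1, Egr2, Egr3, Egr4, Fos, Fosb, Jun, Junb, Ier2 and Atf3, which encode transcription factors and a nuclear regulator, were chosen by name out of 23853 gene symbols that the 3 deposited count tables have in common. The choice was made with earlier results of these data known. All 10 were present in each table. They were followed by RNA-seq in male mouse germ cells sorted by flow cytometry on GFP, with Tex15-/- (knockout) and Tex15+/- (heterozygous) cells at embryonic day 16.5 (e16.5), embryonic day 18.5 (e18.5) and postnatal day 2 (d2). Of the 20 libraries, 12 are fetal, 3 for each genotype and age, and 8 are from d2, 4 for each genotype. All animals had a mixed strain background, and the heterozygous cells, which serve as the control, also lack 1 copy of Tex15. The labels do not say what drives GFP, how the Tex15 allele was made, or whether a library holds 1 animal or several. P-values therefore measure only the spread between these libraries.

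Immediate early genes are transcribed within minutes of a stimulus from existing factors, without new protein synthesis. Growth factor signals reach them through the RAS, RAF, MEK and ERK kinases, which act on SRF with its ELK partners at CArG boxes and on CREB at cyclic AMP response elements. Their products then bind DNA themselves: EGR proteins are zinc finger factors that recognise GC-rich sites, while FOS and JUN proteins pair as AP-1. The genes also respond to stress and to the handling of tissue. In the postnatal testis, EGR and ETV factors are known to act downstream of GDNF signalling in spermatogonia, and Egr4 loss is known to impair male fertility.

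Promoters of 4 members are shown because the family is defined by how it is switched on: 3 hold CArG box or cyclic AMP response element letters, and Jun is set beside them. Windows of 300 bases, which span the annotated start and lie mostly before it, came from RefSeq (GRCm38.p6) for 7 of the 10 members, 11 windows in all. Egr1, Egr3 and Ier2 were not matched. Capitals mark CArG boxes and the letters TGACG, the core of a cyclic AMP response element, which reads CGTCA on the opposite strand. The deposited counts used another build (mm9), so these coordinates belong to the sequences only. The windows are Egr2 at chr10:67537619-67537918 (plus strand), Egr4 at chr6:85513540-85513839 (minus strand), Fos at chr12:85473640-85473939 (plus strand) and Jun at chr4:95052173-95052472 (minus strand).
Egr2: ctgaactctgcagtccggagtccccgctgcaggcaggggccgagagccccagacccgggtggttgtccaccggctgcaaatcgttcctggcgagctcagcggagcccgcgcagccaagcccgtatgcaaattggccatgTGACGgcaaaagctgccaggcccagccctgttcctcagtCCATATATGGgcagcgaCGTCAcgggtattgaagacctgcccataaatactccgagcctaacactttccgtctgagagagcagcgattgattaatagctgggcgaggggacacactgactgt
Egr4: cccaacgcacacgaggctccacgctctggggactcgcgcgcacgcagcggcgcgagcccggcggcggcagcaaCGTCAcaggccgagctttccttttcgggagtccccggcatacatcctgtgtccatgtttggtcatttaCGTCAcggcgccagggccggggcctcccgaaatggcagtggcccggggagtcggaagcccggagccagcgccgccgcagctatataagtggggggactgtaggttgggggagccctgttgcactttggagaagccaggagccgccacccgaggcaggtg
Fos: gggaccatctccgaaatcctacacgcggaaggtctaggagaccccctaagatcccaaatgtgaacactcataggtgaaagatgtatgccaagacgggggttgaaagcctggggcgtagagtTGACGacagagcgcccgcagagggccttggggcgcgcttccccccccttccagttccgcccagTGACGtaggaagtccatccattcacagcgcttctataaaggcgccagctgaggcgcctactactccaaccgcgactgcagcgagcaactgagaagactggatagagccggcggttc
Jun: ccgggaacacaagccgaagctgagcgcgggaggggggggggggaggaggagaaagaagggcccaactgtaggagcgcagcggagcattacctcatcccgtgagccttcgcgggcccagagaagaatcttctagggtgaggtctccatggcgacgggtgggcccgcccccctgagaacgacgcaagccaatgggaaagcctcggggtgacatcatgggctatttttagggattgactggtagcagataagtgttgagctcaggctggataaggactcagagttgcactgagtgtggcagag

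A CArG box was found on either strand in Egr2 alone, in 4 of its 5 windows, against 1.63% of the 32851 windows of all genes. Of those 4 windows 3 overlap and share 1 CArG box, so that the 4 windows hold 2 distinct sites. The same 3 overlapping windows share their TGACG letters. TGACG stood in 8 of the 11 windows and in 6 of the 7 genes (Atf3, Egr2, Egr4, Fos, Fosb and Junb), against 20.8% of all windows. Jun had neither in its window. The full palindrome TGACGTCA, which overlaps TGACG, was in none of the 11 windows, against 1.79% of all windows, and the AP-1 site TGANTCA was also in none, against 7.81%. The EGR site GCGNGGGCG was found in the Fosb window alone, against 5.55% of all windows. These are exact matches of letters within the window, and binding was not measured. Near forms, such as TGACATCA in the Jun window, were not counted.

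**Figure D1:**
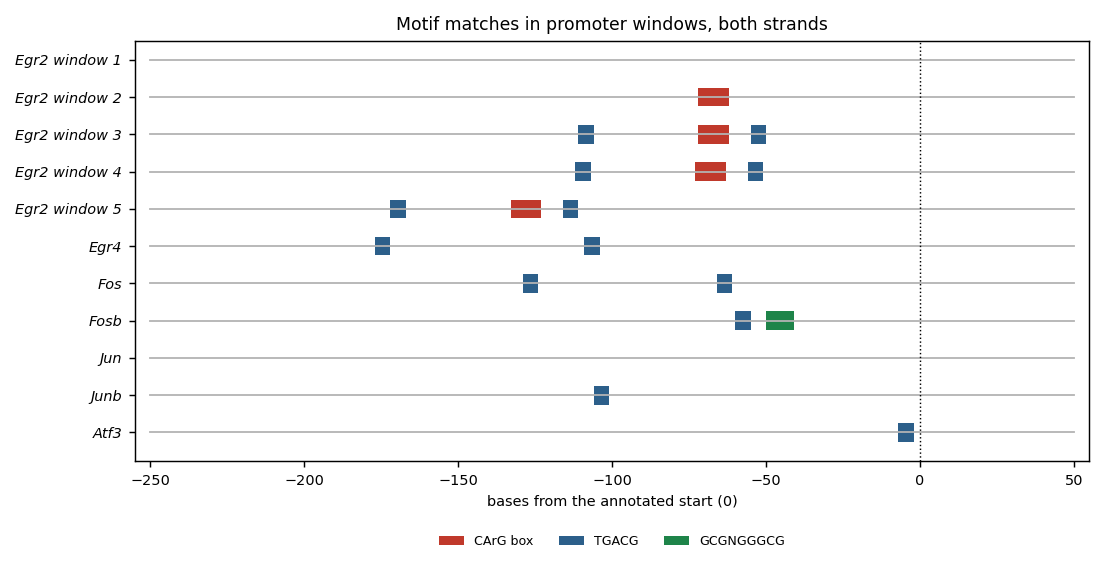
Motif matches on both strands in the 11 promoter windows of the 7 matched members. The horizontal axis is the distance in bases from the annotated start, each row is 1 window, and boxes are matches (red CArG box, blue TGACG, green GCGNGGGCG). TGACG is seen in 6 of the 7 genes, the CArG box in Egr2 alone, and no box in Jun.

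Total counts ran from 14328826 to 31496510 per library, and the counts in genes from 7775062 to 14202847. Levels are CPM, the count of a gene relative to all gene counts of its library, scaled by TMM over all 20 libraries, and 3 counts, the limit that a count of 0 allows, correspond to 0.205 to 0.391 CPM. The germ cell label was checked with 12 markers, none of them at 0, whose summed level was 3479.6 to 7467 CPM in all libraries, beside 52.2 to 132 CPM for 13 Sertoli cell markers, 115 to 229 CPM for 10 endothelial markers and 688 to 953 CPM for 16 peritubular and interstitial stroma markers. Tex15 lay at 612 to 2103 CPM in heterozygous libraries and at 1.70 to 5.34 CPM in 9 of the 10 knockout libraries. The library labelled knockout replicate 2 at d2 held 101.5 CPM of Tex15, so the genotype differences that passed at d2 are also given without it, as are the members' calls of d2 over e18.5. Each age has a count table of its own, and age cannot be told apart from any batch that goes with it.

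Between e18.5 and d2 the immediate early genes rose in both genotypes. Of the 10 members, 10 rose in knockout cells and 9 in heterozygous cells (edgeR quasi-likelihood test, adjusted p under 0.05 over 18619 genes). Over all genes tested, 25.3% rose in knockout and 24.1% in heterozygous cells. Libraries of the ages did not overlap in 9 of 10 members in each genotype, with d2 higher, and this held for 25.2% of all genes in knockout and 24.2% in heterozygous cells. The median log2 fold change of the members was 3.03 in knockout and 3.07 in heterozygous cells, against -0.11 in knockout and -0.08 in heterozygous cells over all genes. In 8 members every one of the 8 d2 libraries lay above every one of the 12 fetal libraries. The exceptions were Egr4, with 7 of 8 d2 libraries above, and Atf3, with 6 of 8. The share of all genes with every d2 library above every fetal library was not counted. This count thus does not set the members apart. In bulk RNA, a larger share of cells with these transcripts cannot be told apart from more transcripts per cell.

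**Figure D2:**
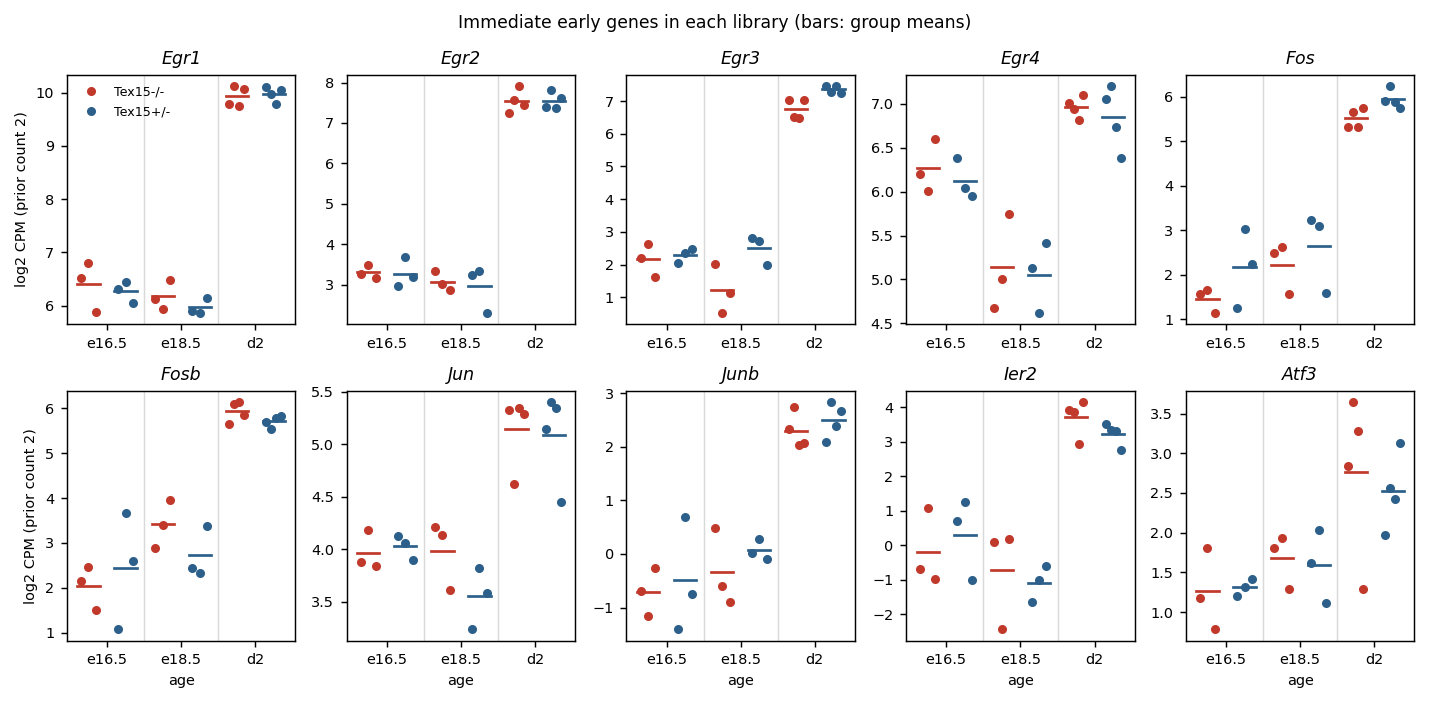
Level of each immediate early gene in every library. Each panel is 1 gene, the horizontal axis is age, the vertical axis is log2 CPM with a prior count of 2 and a range of its own in each panel, points are libraries (red Tex15-/-, blue Tex15+/-) and bars are means of the log2 values. The d2 points stand above all fetal points in 8 of the 10 genes, and the share of all genes that do so was not counted.

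Egr1 encodes a zinc finger factor induced by growth factors. It measured 91.6, 112 and 58.7 CPM in knockout and 78.8, 86.8 and 65.8 CPM in heterozygous libraries at e16.5. At e18.5 it measured 69.2, 60.6 and 88.6 CPM in knockout and 59.3, 57.9 and 70.6 CPM in heterozygous libraries. At d2 it measured 887, 1117, 862 and 1074 CPM in knockout and 1095, 999.8, 887 and 1059 CPM in heterozygous libraries. The lowest d2 library was 7.71 times the highest fetal library, and the genotypes overlapped at every age. The log2 fold change of d2 over e18.5 was 3.76 (SE 0.19, adjusted p = 3.86e-14) in knockout and 4.01 (SE 0.19, adjusted p = 1.43e-14) in heterozygous cells, rank 80 of 18619 genes by log2 fold change in knockout and rank 54 in heterozygous cells.

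Egr2, the member with CArG boxes in its promoter windows and known from hindbrain and Schwann cell development, measured 9.47, 10.9 and 8.73 CPM in knockout and 7.59, 12.6 and 8.89 CPM in heterozygous libraries at e16.5. At e18.5 it measured 9.97, 7.85 and 7.07 CPM in knockout and 9.31, 9.90 and 4.73 CPM in heterozygous libraries. At d2 the libraries held 152, 189.6, 242 and 173 CPM in knockout and 169, 225, 166 and 195 CPM in heterozygous cells. The lowest d2 library exceeded the highest fetal library 12.0 times, again with the genotypes overlapping at each age. Its log2 fold change of d2 over e18.5 was 4.51 (SE 0.24, adjusted p = 1.24e-13) in knockout and 4.55 (SE 0.24, adjusted p = 1.13e-13) in heterozygous cells.

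Egr3, a factor known from muscle spindle and lymphocyte development, had the widest gap between d2 and fetal libraries of the 10 members, with the lowest d2 library at 13.1 times the highest fetal one. It measured 4.43, 6.03 and 2.91 CPM in knockout and 3.94, 4.94 and 5.37 CPM in heterozygous libraries at e16.5. At e18.5 the values were 3.89, 1.25 and 2.01 CPM in knockout and 6.78, 6.36 and 3.78 CPM in heterozygous libraries. At d2 they were 129.7, 91.6, 88.5 and 131 CPM in knockout and 175, 156, 176 and 151 CPM in heterozygous libraries. The d2 groups did not overlap, knockout being lower, whereas the genotypes overlapped at both fetal ages. From e18.5 to d2 the log2 fold change was 5.50 (SE 0.31, adjusted p = 2.87e-13) in knockout and 4.85 (SE 0.29, adjusted p = 1.23e-12) in heterozygous cells.

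Egr4, the EGR gene with a known role in male fertility, followed a different course, since it fell between the fetal ages before it rose. It measured 73.4, 63.9 and 97.2 CPM in knockout and 83.1, 65.9 and 61.7 CPM in heterozygous libraries at e16.5. At e18.5 the values were 25.3, 31.8 and 53.4 CPM in knockout and 34.7, 24.3 and 42.6 CPM in heterozygous libraries. At d2 they were 128, 123, 112 and 137 CPM in knockout and 133, 148, 107 and 83.1 CPM in heterozygous libraries. The e18.5 libraries lay below all e16.5 and all d2 libraries of their genotype, while the lowest heterozygous d2 library, at 83.1 CPM, lay below the highest knockout library of e16.5, at 97.2 CPM. Over e18.5, d2 showed a log2 fold change of 1.76 (SE 0.24, adjusted p = 9.16e-07) in knockout and 1.80 (SE 0.24, adjusted p = 9.52e-07) in heterozygous cells.

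Fos and Fosb encode FOS proteins, partners of JUN in AP-1. Fos measured 2.78, 2.97 and 2.02 CPM in knockout and 2.21, 8.02 and 4.55 CPM in heterozygous libraries at e16.5, and 5.43, 5.94 and 2.79 CPM in knockout and 9.24, 8.32 and 2.84 CPM in heterozygous libraries at e18.5. At d2 Fos measured 39.8, 50.6, 39.8 and 53.3 CPM in knockout and 60.0, 75.5, 58.4 and 53.5 CPM in heterozygous libraries. Every d2 library was at least 4.30 times the highest fetal library. The log2 fold change of d2 over e18.5 was 3.28 (SE 0.37, adjusted p = 6.30e-08) in knockout and 3.17 (SE 0.36, adjusted p = 1.01e-07) in heterozygous cells.

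Fosb measured 4.26, 5.33 and 2.67 CPM in knockout and 1.92, 12.5 and 5.89 CPM in heterozygous libraries at e16.5, and 7.21, 10.3 and 15.3 CPM in knockout and 5.27, 4.87 and 10.2 CPM in heterozygous libraries at e18.5. At d2 the values were 49.9, 68.2, 70.3 and 57.9 CPM in knockout and 52.0, 46.4, 54.9 and 57.0 CPM in heterozygous libraries. The fetal values spread widely among replicates, from 1.92 to 12.5 CPM in heterozygous cells at e16.5, and all remained below the d2 range. Its log2 fold change of d2 over e18.5 was 2.49 (SE 0.39, adjusted p = 1.31e-05) in knockout and 2.96 (SE 0.40, adjusted p = 2.80e-06) in heterozygous cells.

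Jun and Junb encode JUN proteins of AP-1. At e16.5 Jun measured 14.5, 18.0 and 14.2 CPM in knockout and 17.3, 16.5 and 14.7 CPM in heterozygous libraries. At e18.5 it measured 18.4, 17.3 and 12.0 CPM in knockout and 9.24, 14.0 and 11.8 CPM in heterozygous libraries. At d2 the values were 40.0, 24.4, 40.6 and 38.8 CPM in knockout and 35.2, 42.1, 40.5 and 21.7 CPM in heterozygous libraries. Its lowest d2 library was 1.18 times its highest fetal library, the smallest gap of the 8 members without overlap. The log2 fold change of Jun was 1.18 (SE 0.24, adjusted p = 0.000216) in knockout and 1.58 (SE 0.25, adjusted p = 8.62e-06) in heterozygous cells. Junb was counted at low level, with 0.434, 0.262 and 0.647 CPM in knockout and 0.192, 1.43 and 0.413 CPM in heterozygous libraries at e16.5. At e18.5 Junb measured 1.22, 0.479 and 0.349 CPM in knockout and 0.822, 1.02 and 0.757 CPM in heterozygous libraries. At d2 Junb measured 4.84, 6.48, 3.91 and 4.04 CPM in knockout and 4.05, 6.94, 5.07 and 6.20 CPM in heterozygous libraries. All d2 libraries exceeded all fetal ones, the lowest by 2.73 times. Its log2 fold change was 2.78 (SE 0.60, adjusted p = 0.000315) in knockout and 2.67 (SE 0.58, adjusted p = 0.000451) in heterozygous cells.

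Ier2 and Atf3 complete the group. Ier2, a nuclear regulator induced early after stimulation, measured 0.434, 1.92 and 0.323 CPM in knockout and 1.44, 2.20 and 0.310 CPM in heterozygous libraries at e16.5. At e18.5 it held 0.892, 0 and 0.959 CPM in knockout and 0.137, 0.314 and 0.473 CPM in heterozygous libraries. These rest on 22 counts over the 3 knockout libraries, 1 of them at 0 counts, and 11 counts over the 3 heterozygous libraries. At d2 Ier2 reached 14.9, 14.4, 7.42 and 17.6 CPM in knockout and 11.2, 9.95, 9.80 and 6.53 CPM in heterozygous libraries at d2. The d2 libraries lay above all fetal ones, and the genotypes overlapped. Its log2 fold change was 4.41 (SE 0.69, adjusted p = 7.57e-06) in knockout and 4.93 (SE 0.74, adjusted p = 5.85e-06) in heterozygous cells, with a 95% interval of 2.99 to 5.82 in knockout and 3.41 to 6.46 in heterozygous cells. Atf3, a stress-induced factor of the ATF and CREB family, measured 2.09, 3.32 and 1.54 CPM in knockout and 2.11, 2.31 and 2.48 CPM in heterozygous libraries at e16.5. At e18.5 Atf3 measured 3.32, 3.64 and 2.27 CPM in knockout and 2.88, 3.93 and 1.99 CPM in heterozygous libraries. At d2 Atf3 measured 6.99, 12.3, 9.50 and 2.27 CPM in knockout and 3.75, 5.75, 5.19 and 8.56 CPM in heterozygous libraries. The d2 and e18.5 ranges overlapped in both genotypes. Atf3 rose in knockout cells with a log2 fold change of 1.33 (SE 0.47, adjusted p = 0.0184) and did not pass in heterozygous cells, at 0.98 (SE 0.46, adjusted p = 0.0784). The knockout call was lost without e18.5 replicate 3 (adjusted p = 0.0783) and without d2 replicate 2, the library with Tex15 counts (adjusted p = 0.0768). The other 9 members also rose in knockout cells without that library.

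**Figure D3:**
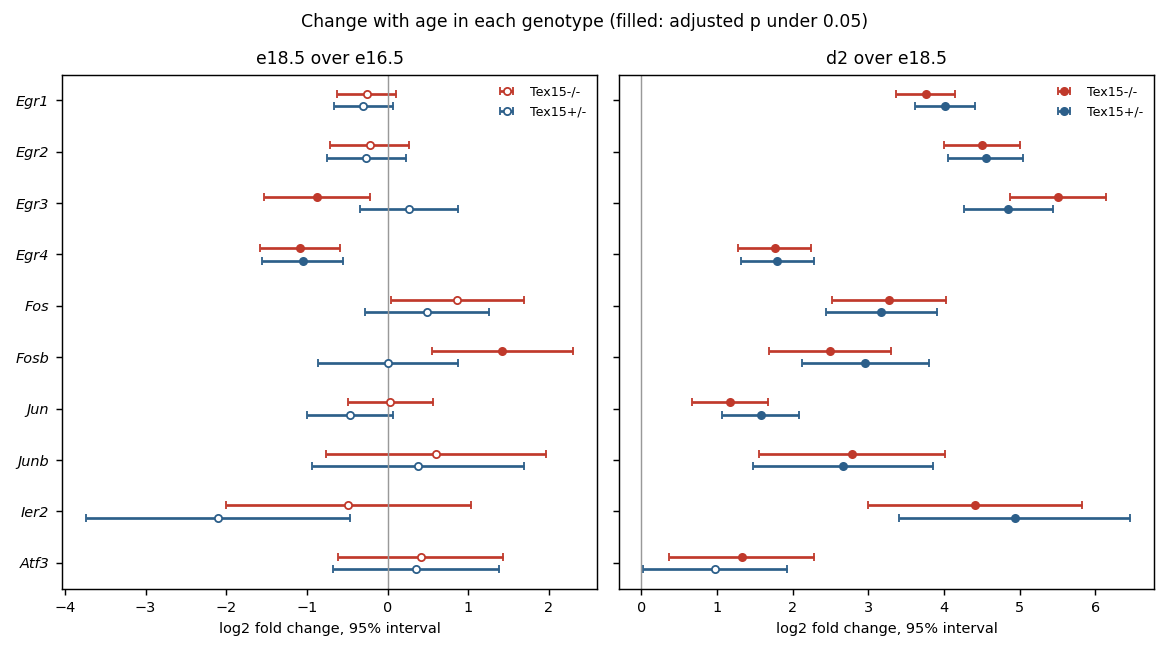
Log2 fold change with age of each member, with e18.5 over e16.5 on the left and d2 over e18.5 on the right. Points are edgeR estimates with 95% intervals (red Tex15-/-, blue Tex15+/-), filled where the adjusted p was under 0.05. On the right every estimate lies above 0, and Atf3 in heterozygous cells is the open point.

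The groups can also be ordered by their mean level. In all 10 genes the 2 d2 groups came first and the 4 fetal groups after them. The d2 group with the lower mean did not overlap the fetal group with the highest mean in 9 genes, and did in Egr4. For Atf3 these groups were heterozygous d2, from 3.75 CPM, and knockout e18.5, up to 3.64 CPM. Atf3 still overlapped otherwise, with knockout d2 down to 2.27 CPM and heterozygous e18.5 up to 3.93 CPM. Among neighbours in that order, the d2 groups stood apart from each other for Egr3 and Fos and overlapped for the other 8 members. Between the fetal groups, neighbours stood apart at 1 step for Egr4, where e16.5 lay above e18.5, and at 1 step for Jun, where heterozygous cells at e18.5 came last. All other fetal neighbours overlapped. Such orders and overlaps were not counted over all genes, so they do not set the members apart.

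Between e16.5 and e18.5 the members did not move together. This step and the one to d2 share the e18.5 libraries. In knockout cells 1 of 10 rose and 2 fell, where 17.5% of all genes rose and 17.7% fell. In heterozygous cells 0 rose and 1 fell, where 7.63% of all genes rose and 10.2% fell. The members' median log2 fold change was -0.09 in knockout and -0.13 in heterozygous cells, against 0.09 in knockout and 0.04 in heterozygous cells over all genes. Without overlap, 1 member lay higher and 1 lower at e18.5 in knockout cells, where 29.4% of all genes lay higher and 25.7% lower. In heterozygous cells 2 members lay lower without overlap, Egr4 and Jun, where 17.9% of all genes did.

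Egr4 fell in both genotypes, with a log2 fold change of e18.5 over e16.5 of -1.09 (SE 0.24, adjusted p = 0.00125) in knockout and -1.05 (SE 0.24, adjusted p = 0.00368) in heterozygous cells. Fosb rose in knockout cells to 10.9 ± 4.06 CPM at e18.5, against 4.08 ± 1.34 CPM at e16.5 (SD, n = 3 each), with no overlap and a log2 fold change of 1.42 (SE 0.42, adjusted p = 0.0120). That call was lost without e16.5 replicate 3 (adjusted p = 0.0729) and without e18.5 replicate 3 (adjusted p = 0.0789). Egr3 fell in knockout cells to 2.38 ± 1.36 CPM, against 4.46 ± 1.56 CPM, with overlapping libraries and a log2 fold change of -0.87 (SE 0.32, adjusted p = 0.0349). That call did not hold without e16.5 replicates 1 or 2 or e18.5 replicates 2 or 3, where the adjusted p was between 0.0535 and 0.189, nor with the 2 groups fitted alone (adjusted p = 0.109) or with library size only (adjusted p = 0.123). Fos in knockout cells was at 0.86 (adjusted p = 0.0927). Fos was called without e18.5 replicate 3 (adjusted p = 0.0462), under library size only (adjusted p = 0.0408) and by DESeq2 (adjusted p = 0.0495). Egr1 in knockout cells, at -0.26 (adjusted p = 0.259), passed without e16.5 replicate 3 (adjusted p = 0.0278). In heterozygous cells Fosb was at 0.00 (adjusted p = 0.999), Egr3 at 0.26 (adjusted p = 0.574) and Ier2 at -2.10 (adjusted p = 0.0671). Ier2 passed with DESeq2 (adjusted p = 0.0261) and without e16.5 replicate 3 (adjusted p = 0.0184), on a total of 11 counts at e18.5.

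Between knockout and heterozygous cells, Egr3 at d2 was the 1 difference among the members that passed at any age. At e16.5, 0 of 9 members tested passed with edgeR, where 0.0061% of 16384 genes passed. None of the 9 had an unadjusted p under 0.05, where 1266 of the 16384 genes had one, and DESeq2 called 0 members. Junb was too low to be tested. The log2 fold changes ran from -0.95 for Fos to 0.15 for Egr1, and all members overlapped between genotypes. Fos averaged 2.59 ± 0.502 CPM in knockout and 4.92 ± 2.92 CPM in heterozygous libraries (SD, n = 3 each), a difference with a 95% interval of -1.98 to 0.08 on the log2 scale.

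At e18.5, 0 of 8 members tested passed with edgeR and 0 with DESeq2, where 2.33% of 18075 genes passed with edgeR. Junb and Ier2 were too low to be tested. Egr3 alone of the 8 had an unadjusted p under 0.05. Over all genes, 2045 of 18075 had one, a share near 1 of 8. Egr3 averaged 2.38 ± 1.36 CPM in knockout and 5.64 ± 1.62 CPM in heterozygous libraries (SD, n = 3 each), with a log2 fold change of -1.24 (95% interval -2.19 to -0.29, unadjusted p = 0.0130, adjusted p = 0.234 in edgeR). The highest knockout library, at 3.89 CPM, lay just above the lowest heterozygous one, at 3.78 CPM. Summed macrophage and white blood cell markers stood at 89.7 to 109.6 CPM in knockout and 30.8 to 43.1 CPM in heterozygous libraries at this age, with 2 of 5 tested markers higher in knockout. Mrc1 averaged 72.9 CPM in knockout and 21.8 CPM in heterozygous cells, and Adgre1 13.7 and 3.86 CPM. Of the other markers in this list of 8, Cd68 averaged 5.90 and 5.43 CPM in the same order, and Csf1r 1.01 and 1.66 CPM. Cx3cr1 averaged 0.574 and 0.836 CPM, on 19 counts in knockout and 32 in heterozygous libraries. The named markers thus did not all lie higher in knockout, and they need not be the 5 that were tested. The part of such cells in the members' values was not tested.

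At d2, 1 of 10 members fell in knockout cells and 0 rose, where 0.776% of 15343 genes fell and 2.03% rose. The member was Egr3, which averaged 110.1 ± 23.2 CPM in knockout and 164 ± 12.8 CPM in heterozygous libraries (SD, n = 4 each). All 4 knockout libraries lay below all 4 heterozygous ones. Its log2 fold change was -0.58 (SE 0.15, adjusted p = 0.0349), with a 95% interval of -0.89 to -0.28. The call was lost without the library with Tex15 counts, knockout replicate 2, at a log2 fold change of -0.50 (adjusted p = 0.0722). It was further lost without knockout replicate 3 (adjusted p = 0.130), heterozygous replicate 1 (adjusted p = 0.118) or heterozygous replicate 3 (adjusted p = 0.100), or when the libraries of every age were fitted jointly (adjusted p = 0.115). The log2 fold change stayed between -0.67 and -0.49 over the 8 fits without 1 library.

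Fos also had no overlap at d2, with 45.9 ± 7.10 CPM in knockout and 61.9 ± 9.49 CPM in heterozygous libraries (SD, n = 4 each). The highest knockout library held 53.3 CPM and the lowest heterozygous library 53.5 CPM. Its log2 fold change was -0.43 (SE 0.17, unadjusted p = 0.0197) and did not pass (adjusted p = 0.200 in edgeR, and 0.159 without knockout replicate 2). Groups without overlap and with knockout lower were seen in 2 of the 10 members and in 4.32% of all genes. The remaining 8 members overlapped, with log2 fold changes from -0.22 for Junb to 0.53 for Ier2. The 95% interval was narrowest for Egr1, at -0.28 to 0.20, and Egr2, at -0.31 to 0.30, and widest for Atf3, at -0.50 to 1.32. Over all 10 members the median log2 fold change was 0.02, against -0.02 over all genes.

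**Figure D4:**
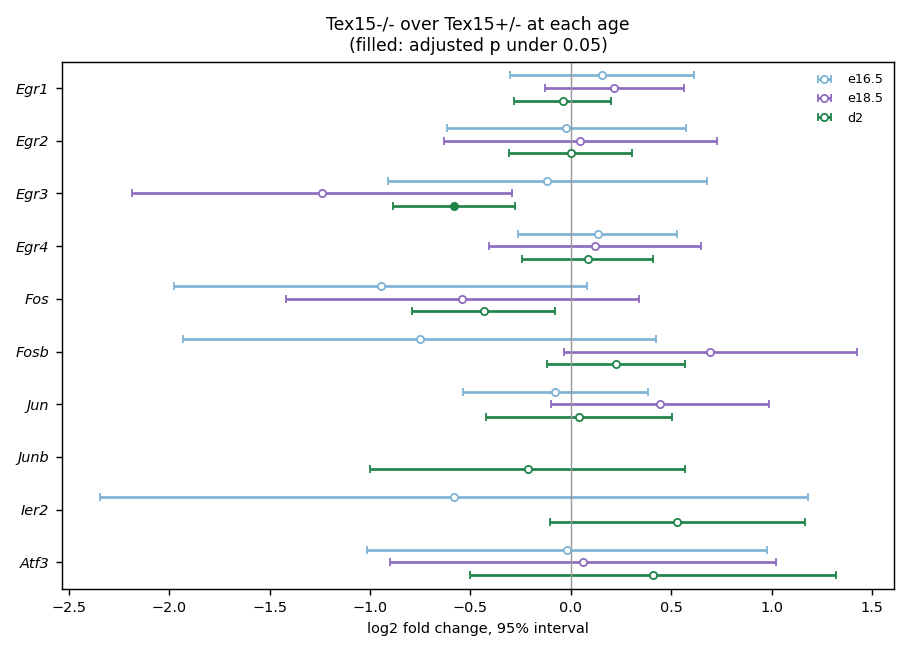
Log2 fold change of Tex15-/- over Tex15+/- for each member at e16.5, e18.5 and d2, with 95% intervals from edgeR. Filled points passed an adjusted p of 0.05, and members too low to be tested have no point. Egr3 at d2 is the filled point, at -0.58.

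The genotype difference was compared between ages in 1 fit of all 20 libraries. For e18.5 against e16.5, 0 of 10 members passed with edgeR and 0 with DESeq2, where 0.0967% of 18619 genes passed with edgeR. Over all genes, 1190 of 18619 had an unadjusted p under 0.05. Members with such a p were Egr3, at -1.14 (edgeR adjusted p = 0.595), and Fosb, at 1.42 (edgeR adjusted p = 0.692), on the log2 scale. So the fetal changes of Egr3 and Fosb that passed in knockout cells were not shown to differ from those in heterozygous cells. For d2 against e18.5, 0 members passed with edgeR, 0 had an unadjusted p under 0.05 and 0 passed with DESeq2, where 0.526% of all genes passed with edgeR. In that comparison 2508 of 18619 genes had an unadjusted p under 0.05. The rise of Egr1 at d2 differed between genotypes by -0.26 (95% interval -0.73 to 0.22), that of Egr3 by 0.65 (95% interval -0.11 to 1.42) and that of Ier2 by -0.52 (95% interval -2.47 to 1.42).

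Other genes known as immediate early were followed as a list of 37, of which 36 could be tested across ages. From e18.5 to d2, 19 rose and 5 fell in knockout cells, and 21 rose and 5 fell in heterozygous cells, with a median log2 fold change of 1.33 in knockout and 1.40 in heterozygous cells. Over all genes tested, 25.3% rose and 29.7% fell in knockout, and 24.1% rose and 27% fell in heterozygous cells. Zfp36, which destabilises AU-rich mRNAs, rose by 2.71 (adjusted p = 6.95e-11) on the log2 scale in knockout and 2.73 (adjusted p = 8.15e-11) in heterozygous cells. Trib1, a pseudokinase, rose by 3.49 (adjusted p = 4.95e-12) in knockout and 2.70 (adjusted p = 1.99e-10) in heterozygous cells. The orphan nuclear receptor gene Nr4a1 measured 38.8 ± 6.50 CPM in knockout and 46.6 ± 11.6 CPM in heterozygous cells at d2, and 7.18 ± 1.26 CPM in knockout and 7.33 ± 1.87 CPM in heterozygous cells at e18.5. Its relative Nr4a3 took another course, with 0.601 ± 0.273, 6.82 ± 1.96 and 0.939 ± 0.792 CPM in knockout cells at e16.5, e18.5 and d2 (SD, n = 3, 3 and 4). Nr4a3 rose between the fetal ages by 3.49 (adjusted p = 0.000359) in knockout and 2.42 (adjusted p = 0.00846) in heterozygous cells. In heterozygous cells its log2 fold change ran from 1.95 to 3.59 over the 6 fits without 1 library, and the call was lost without e16.5 replicate 1 (adjusted p = 0.0547) or e16.5 replicate 2 (adjusted p = 0.0517). Between the fetal ages 9 of the list rose and 2 fell in knockout cells, where 17.5% of all genes rose and 17.7% fell. In heterozygous cells 6 rose and 0 fell, where 7.63% of all genes rose and 10.2% fell. The phosphatase gene Dusp1 was among those that rose, by 0.85 (adjusted p = 0.000491) in knockout and 0.68 (adjusted p = 0.00667) in heterozygous cells. In heterozygous cells its call was lost in 1 of 6 fits without 1 library (adjusted p = 0.0592).

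Between genotypes, 1 of 34 tested genes of that list fell at e18.5 and 2 of 34 at d2. Over all genes, 2.33% passed in either direction at e18.5, where 49 of 18075 fell, and 0.776% fell at d2. The list's smallest p at e16.5 were those of Fosl2, at -0.81 (adjusted p = 0.629), and Cyr61, at -1.07 (adjusted p = 0.631), on the log2 scale, neither of which passed. In both, the knockout libraries of e16.5 lay below the heterozygous ones without overlap. The share of all genes that did so at e16.5 was not counted, so this does not set these genes apart. Fosl2, a FOS relative that also pairs in AP-1, fell at d2 to 30.7 ± 2.72 CPM in knockout, against 57.4 ± 9.75 CPM in heterozygous cells (SD, n = 4 each), with a log2 fold change of -0.91 (adjusted p = 0.00736) and no overlap. It passed in all 8 fits without 1 library, with an adjusted p of up to 0.0388, and of 0.0161 without the library with Tex15 counts. Per1, a clock gene, fell with a log2 fold change of -0.69 (adjusted p = 0.0476) at d2, with overlapping libraries, and lost its call in 7 of 8 such fits. The fit that kept it was the one without the library with Tex15 counts, at -0.87 (adjusted p = 0.00936). Trib1 fell at e18.5, with a log2 fold change of -0.93 (adjusted p = 0.0485), and lost its call in 4 of 6 fits.

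Among 19 AP-1 partners and EGR corepressors, of which 16 were tested between genotypes at d2, 2 fell in knockout cells and 0 rose, where 0.776% of all genes fell and 2.03% rose. Fosl2 is among them, since the lists share it. Nab2 also fell: it encodes a corepressor that binds EGR proteins, and it measured 60.8 ± 11.1 CPM in knockout and 104 ± 24.3 CPM in heterozygous cells, with a log2 fold change of -0.77 (adjusted p = 0.0184). Its call was lost in 3 of 8 fits without 1 library, with an adjusted p of up to 0.0841, and kept without the library with Tex15 counts (adjusted p = 0.0280). It was also lost with all ages fitted jointly (adjusted p = 0.0709). With age, Nab2 fell between the fetal ages with a log2 fold change of -1.52 (adjusted p = 0.000299) in knockout and -1.20 (adjusted p = 0.00530) in heterozygous cells. At d2 it rose in heterozygous cells by 2.08 (adjusted p = 2.04e-06) over e18.5. In knockout cells it measured 60.8 ± 11.1 CPM at d2, against 27.1 ± 13.8 CPM at e18.5, also without overlap. From e18.5 to d2, 8 of 18 list members rose and 3 fell in knockout cells, and 7 rose and 2 fell in heterozygous cells, with a median log2 fold change of 0.46 in knockout and 0.44 in heterozygous cells. The shares of all genes at this step were 25.3% rising and 29.7% falling in knockout, and 24.1% rising and 27% falling in heterozygous cells. Atf7, an ATF factor of the AP-1 dimers, fell with a log2 fold change of -3.24 (adjusted p = 5.12e-15) in knockout and -3.06 (adjusted p = 1.69e-14) in heterozygous cells.

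Of 27 upstream kinases and transcription factors, 17 rose and 3 fell from e18.5 to d2 in knockout cells, and 18 rose and 6 fell in heterozygous cells, with a median log2 fold change of 0.68 in knockout and 0.62 in heterozygous cells. Of all genes tested, 25.3% rose and 29.7% fell in knockout, and 24.1% rose and 27% fell in heterozygous cells. Map2k1, which encodes the ERK kinase MEK, rose by 2.53 (adjusted p = 3.44e-09) in knockout and 2.05 (adjusted p = 9.77e-08) in heterozygous cells. Braf, a RAF kinase, fell with a log2 fold change of -1.74 (adjusted p = 1.02e-09) in knockout and -1.83 (adjusted p = 6.48e-10) in heterozygous cells. At d2, Creb1, which encodes CREB, was higher in knockout by 0.57 (adjusted p = 0.0403), and the SRF coactivator gene Mkl2 by 0.40 (adjusted p = 0.0471), each losing its call in 7 of 8 fits without 1 library. For both, the fit that kept the call was the one without the library with Tex15 counts, with Creb1 at 0.64 (adjusted p = 0.0215) and Mkl2 at 0.41 (adjusted p = 0.0481). Mkl2 also lost its call without a filter (adjusted p = 0.0564) and with all ages fitted jointly (adjusted p = 0.0754), and Creb1 and Mkl2 lost theirs with library size only (adjusted p = 0.0794 for Creb1 and 0.122 for Mkl2).

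Genes of heat shock and cell stress, some of which can respond to handling, were read beside the immediate early genes. Whether they responded to handling in these cells was not tested. From e18.5 to d2, 5 of 15 rose and 2 fell in each genotype, where 25.3% of all genes rose and 29.7% fell in knockout and 24.1% rose and 27% fell in heterozygous cells. The list had median log2 fold changes of 0.06 in knockout and -0.09 in heterozygous cells. Their summed level was 3454 to 4011 CPM in knockout and 3445 to 4723 CPM in heterozygous libraries at d2, and 3526 to 3855 CPM in knockout and 3521 to 4305 CPM in heterozygous libraries at e18.5. Hsp90ab1 alone averaged 1330 CPM in knockout and 1542 CPM in heterozygous cells at d2, and 1274 and 1415 CPM at e18.5. The sum of the 10 members was 1454 to 1697 CPM in knockout and 1509.6 to 1738 CPM in heterozygous libraries at d2, and 139 to 185 CPM in knockout and 131 to 149.8 CPM in heterozygous libraries at e18.5. Hmox1, which encodes haem oxygenase, rose at d2 by 2.64 (adjusted p = 3.93e-11) in knockout and 2.53 (adjusted p = 9.31e-11) in heterozygous cells. The part of handling in the rise of the 10 members at d2 was not tested. Any handling that went with age cannot be told apart from age. Between genotypes at d2, 1 of the 15 passed: the chaperone gene Hspa8, higher in knockout by 1.78 (adjusted p = 0.0290) with overlapping libraries, a call lost in 5 of 8 fits without 1 library and without a filter (adjusted p = 0.116). Without the library with Tex15 counts Hspa8 was at 1.71 (adjusted p = 0.0215).

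**Figure D5:**
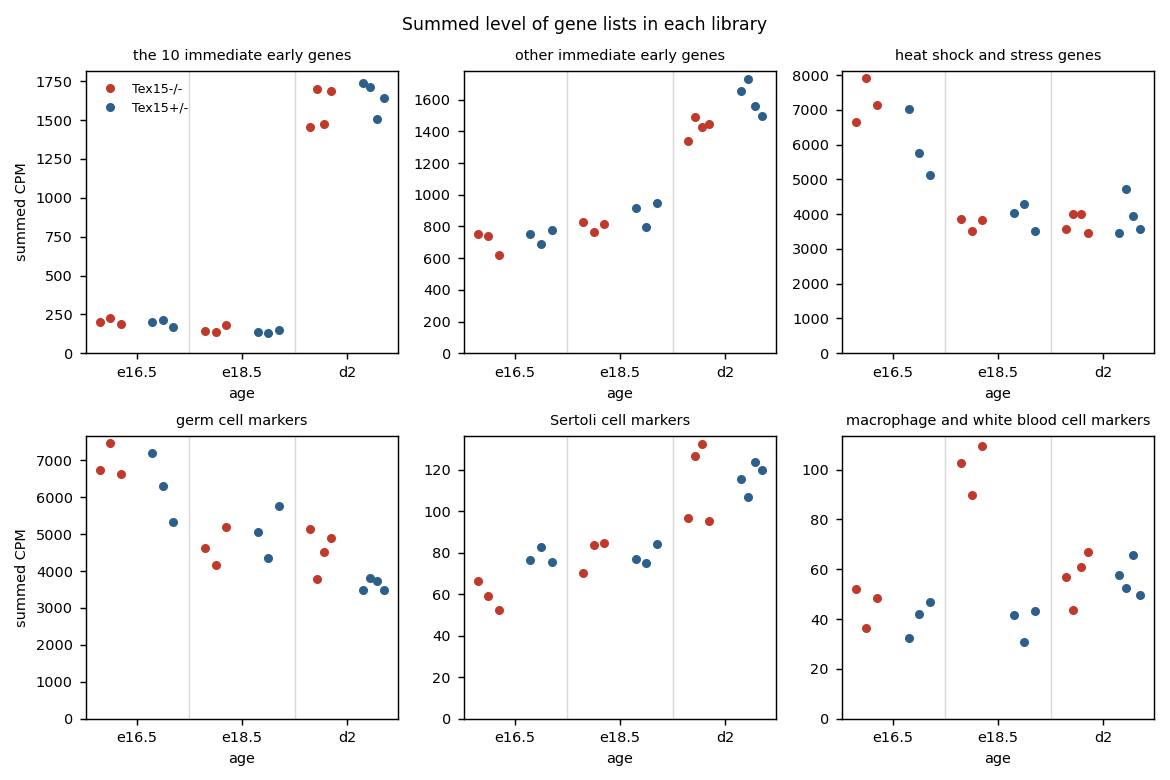
Summed CPM of the 10 immediate early genes and of 5 lists in each library, by age. Each panel is 1 list with a vertical axis from 0, and points are libraries (red Tex15-/-, blue Tex15+/-). The members' sum stands apart at d2, while heat shock and stress genes overlap between e18.5 and d2.

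Markers of germ cells and of other testis cells were also compared between e18.5 and d2, where 25.3% of all genes rose and 29.7% fell in knockout and 24.1% rose and 27% fell in heterozygous cells. Germ cell markers summed to 3773 to 5140.1 CPM in knockout and 3479.6 to 3799 CPM in heterozygous libraries at d2, and to 4173 to 5195 CPM in knockout and 4343 to 5768 CPM in heterozygous libraries at e18.5. Of 12 tested, 5 rose and 3 fell in knockout cells, and 3 rose and 5 fell in heterozygous cells. Their sum was lower at d2 without overlap in heterozygous cells and overlapped in knockout cells. Sertoli cell markers summed to 95.1 to 132 CPM in knockout and 107 to 124 CPM in heterozygous libraries at d2, and to 70.0 to 84.6 CPM in knockout and 74.9 to 84.4 CPM in heterozygous libraries at e18.5. Of 13 tested, 3 rose and 0 fell in knockout cells, and 4 rose and 0 fell in heterozygous cells. Their sum was higher at d2 without overlap in both genotypes, and the share that rose was near that of all genes. Stroma markers summed to 839 to 909 CPM in knockout and 699 to 877 CPM in heterozygous libraries at d2, and to 732 to 766 CPM in knockout and 700.0 to 785 CPM in heterozygous libraries at e18.5. Of 16 tested, 3 rose and 4 fell in knockout cells, and 2 rose and 4 fell in heterozygous cells.

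Endothelial markers summed to 129 to 174 CPM in knockout and 148 to 198 CPM in heterozygous libraries at d2, and to 201 to 229 CPM in knockout and 189 to 222 CPM in heterozygous libraries at e18.5. Of 10 tested, 1 rose and 2 fell in knockout cells, and 1 rose and 3 fell in heterozygous cells. Macrophage and white blood cell markers summed to 43.7 to 66.8 CPM in knockout and 49.8 to 65.8 CPM in heterozygous libraries at d2, and to 89.7 to 109.6 CPM in knockout and 30.8 to 43.1 CPM in heterozygous libraries at e18.5. Of 7 tested, 2 rose and 3 fell in knockout cells, and 1 rose and 2 fell in heterozygous cells. Their sum was lower at d2 in knockout cells and higher in heterozygous cells, both without overlap. Mrc1 alone averaged 72.9 CPM in knockout and 21.8 CPM in heterozygous cells at e18.5, and 35.2 and 30.8 CPM at d2. Leydig cell markers summed to 52.6 to 62.6 CPM in knockout and 52.4 to 80.0 CPM in heterozygous libraries at d2, and to 49.9 to 57.6 CPM in knockout and 52.3 to 56.4 CPM in heterozygous libraries at e18.5, with the hormone gene Insl3 listed at 0 in every group. Of 7 tested, 0 rose and 1 fell in knockout cells, and 2 rose and 1 fell in heterozygous cells. The part of these cells in the rise of the immediate early genes at d2 was not tested.

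Within groups, the members varied together only in part. Each library's log2 CPM was centred on its group, so that age and genotype were removed, and each member was set against the mean of the others over the 20 libraries. Pearson's r was 0.51 for Egr2, 0.42 for Egr3, 0.41 for Egr1, 0.40 for Fos and 0.40 for Junb. It was 0.28 for Ier2, 0.27 for Fosb, 0.02 for Jun and 0.00 for Atf3, and Egr4 ran the other way at -0.43. Of 9577 other genes, those most like the members' mean were Dnaaf2 (r = 0.72), Grk5 (r = 0.70), Bbs1 (r = 0.66), Sat1 (r = 0.65), Epm2aip1 (r = 0.64), Spcs1 (r = 0.63), Iffo2 (r = 0.62) and Zfp36l1 (r = 0.61). These values are a description, and the genes of a library share its depth and preparation. They are also the highest of 9577, and how high r would run through that selection alone was not tested. The members' mean includes Junb and Ier2, which have few fetal counts.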

How the data were processed

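Deposited gene counts of 20 libraries in 6 groups were analysed. The deposited tables hold raw counts per symbol, 1 table per age, made by the authors with refGene annotation per the file headers. Per the submitters' processing notes the tools were STAR, featureCounts, edgeR and Bowtie with mm9, and their versions and roles and the strand setting are not given in the sources used here. RNA was amplified (Ovation kits), and reads of overlapping genes may be shared: of the members, Egr2 alone overlaps another RefSeq gene. Repeat rows and repeat family tables were not used here. Red blood cell markers are not reported here.

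Genotypes were compared within the table of 1 age, using edgeR 4.0.16 (R 4.3.3; filterByExpr with 10 counts and 15 in total, TMM, robust quasi-likelihood F test, Benjamini-Hochberg over all genes, threshold 0.05). Ages and interactions came from 1 fit of all libraries on 23853 common symbols. Genotype fold changes thus come from fits of their own, while printed CPM share 1 TMM scaling. Intervals are 95%. Named list genes are up to 3 called genes with the smallest p per list and comparison, or the 2 smallest p where none was called. The members and lists were chosen with earlier results of these data known. Alternatives were median-ratio factors, DESeq2 1.42.0, a replicate block, omission of the filter, all ages in 1 fit or the compared groups only, each library left out and, chosen after seeing the data, library size without TMM. Scripts were tested on simulated data. Replicate numbers did not pair the samples: correlations of same-numbered deviations ran from -0.194 to 0.0950.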

Additional observations from a re-analysis of the deposited data

Results flagged for a closer look

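Of 22 groups of 4 libraries examined, 2 had 1 library far from the others, where chance gives about 1 in 20. Jun, one of the 10 members, had a lowest knockout library at d2 of 24.4 CPM (replicate 2), while the next value was 38.8 CPM. Its gap took 0.890 of the group's range. Tex15, read as the check of the labels, had a highest knockout library at d2 of 101.5 CPM, while the next value was 2.61 CPM, with a gap of 0.994 of the range. Both are the same library, knockout replicate 2 at d2.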

How the results depend on the processing

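The rise at d2 of 9 members in heterozygous cells was called in every fit tried, as were those of the same 9 in knockout cells, and Atf3 in knockout cells was the exception given above. Counts of genes between genotypes moved more. At e16.5 edgeR called 1 gene, DESeq2 22, no filter 2 and all ages in 1 fit 0. At e18.5 edgeR called 422 and all ages in 1 fit 152. At d2 edgeR called 430, DESeq2 768 and all ages in 1 fit 770. DESeq2 called 2 members in place of 1 for heterozygous cells, e18.5 against e16.5, and 68 genes in place of 18 and 369 in place of 98 for the genotype difference compared between ages. At d2 the 1 member called, Egr3, became 0 with all ages in 1 fit. The cause of these differences was not tested. Depth limits Junb and Ier2, counted in single digits in many fetal libraries.

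Replicate numbers did not pair the samples (correlations of -0.194 to 0.0950). With the replicate block 0 members were called at d2 (Egr3 adjusted p = 0.0642), 235 genes at d2 and 6 and 48 genes for the differences between ages. At d2 the block also lost Nab2 (adjusted p = 0.0580), Per1 (0.0662), Creb1 (0.0770) and Mkl2 (0.0756).

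Without 1 library, genes called between genotypes numbered 187 to 573 at d2, 274 to 502 at e18.5 and 1 to 25 at e16.5, and 3 to 38 and 31 to 226 for the differences between ages. They ran from 4546 to 5841 and 9105 to 10271 for the fetal and d2 steps in knockout and 1740 to 4077 and 8249 to 9833 in heterozygous cells. Members called ran from 0 to 1 at d2, 2 to 3 for knockout and 1 to 2 for heterozygous cells between the fetal ages, and 9 to 10 for knockout cells at d2 against e18.5.

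Signs that turned belonged to changes that did not pass. At d2 Egr2 was at 0.0077 with DESeq2, 0.0076 with median-ratio factors, 0.0065 without a filter and 0.0020 with all ages. With library size only, Egr4 (-0.0059) and Jun (-0.048) turned at d2 and Egr2 (0.0099) in knockout cells, e18.5 against e16.5; that scaling moved the median of all genes by 0.23 there and by 0.13 in heterozygous cells. At e16.5 Atf3 was at 0.0016 without a filter and 0.0069 with all ages, and Egr2 at 0.0027 with the replicate block and 0.0044 with all ages. Without 1 library the e16.5 ranges were -0.059 to 0.38 for Egr1, -0.17 to 0.23 for Egr2, -0.39 to 0.12 for Egr3, -0.051 to 0.27 for Egr4, -1.20 to 0.055 for Fosb, -1.78 to 6.7e-05 for Ier2 and -0.36 to 0.21 for Atf3. At e18.5 they were -0.21 to 0.23 for Egr2, -0.25 to 0.33 for Egr4 and -0.14 to 0.33 for Atf3. At d2 they were -0.11 to 0.021 for Egr1, -0.14 to 0.093 for Egr2, -0.045 to 0.21 for Egr4 and -0.12 to 0.19 for Jun. For e18.5 against e16.5 they were -0.11 to 0.17 for Jun, -0.15 to 0.93 for Junb and -0.94 to 0.69 for Ier2 in knockout, and -0.44 to 0.81 for Fosb and -0.069 to 1.51 for Junb in heterozygous cells.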
